A study of Mus musculus with 6 samples.

Results

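Foxa1, Foxa2, Foxa3, Hnf4a, Hnf4g, Gata4, Gata6 and Cdx2 are transcription factors that specify endoderm and keep the intestinal epithelium differentiated. Probe sets were taken where their single annotated gene symbol was 1 of these 8 names. All 8 genes were found, on 17 of the 45037 probe sets that are not controls. The brightest probe set on average over the 6 arrays stood for each gene, here and for all 18193 genes of the table. The arrays were 3 of CCK-EGFP cells, sorted by fluorescence, and 3 of non-EGFP cells, which were negative for green fluorescent protein and taken in equal number. Both came from the intestine of adult mice of the Swiss Webster (SW) strain that were CCK-EGFP transgenic, so the non-EGFP cells carried the transgene too. In these mice enhanced green fluorescent protein (EGFP) marks cells that express cholecystokinin (Cck), a hormone released after meals by enteroendocrine I cells. The labels state neither the stretch of intestine, nor whether mice were pooled, nor whether replicates are different mice. The p-values therefore reflect only how these samples scatter, and that scatter may be technical.

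FOXA proteins are forkhead factors that open closed chromatin, and in mice Foxa1 and Foxa2 are needed for normal numbers of some enteroendocrine and goblet cells. HNF4A and HNF4G are related nuclear receptors that act together on genes for lipid handling and the brush border in mouse enterocytes. GATA4 and GATA6 are zinc finger factors, of which GATA4 sets the difference between jejunum and ileum, and the homeobox factor CDX2 sets intestinal against gastric identity.

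Levels are given as log2 RMA values, so a step of 1 doubles the intensity. Medians of the CCK-EGFP arrays were 5.66 to 5.72, and those of the non-EGFP arrays 5.37 to 5.55. A background level of 4.60 was set at the 95th percentile of 71 olfactory and vomeronasal receptor genes. All 8 factors had means above it in both groups. Cck averaged 13.16 ± 0.32 in CCK-EGFP cells, against 8.63 ± 0.27 in non-EGFP cells (SD, n = 3 each). In the limma test described below, 10 of 10 enteroendocrine markers, Cck among them, were higher in CCK-EGFP cells, against 14.0% of all genes. The labels' description field calls every sample enteroendocrine, the non-EGFP ones too. The summed linear intensity of 11 enterocyte markers, in units of 1000, was 88.4 to 118 on the CCK-EGFP arrays and 140 to 142 on the non-EGFP arrays, so these markers were bright in both groups. None of the 11 had both means below the background level. Of the RNA quality controls, the 3′ minus 5′ log2 difference of Pcx parted the groups, at 2.36 to 3.07 on CCK-EGFP arrays and 4.26 to 4.38 on non-EGFP arrays. The beta-actin, Gapdh and transferrin receptor controls overlapped. The part of enterocyte markers or of RNA quality in the results that follow was not tested. On bulk arrays, fewer cells of a type and less RNA per cell cannot be told apart.

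The 8 factors did not move together. Foxa1 and Foxa2 were higher in CCK-EGFP cells, Hnf4g and Gata6 were lower, and Foxa3, Hnf4a, Gata4 and Cdx2 did not pass the test on the probe set that represents them. Genes were called at an adjusted p under 0.05 from limma with Benjamini-Hochberg adjustment over all 18193 genes. Of all genes, 14.0% were called higher, 10.2% lower and 24.1% in either direction, so 4 of 8 factors called stands against 24.1% of genes. With the replicate number as a block Gata6 did not pass (limma adjusted p = 0.0545). Then 2 factors were higher and 1 lower, against 2340 and 1534 of the 18193 genes. The median log2 difference of the 8 was 0.19, and that of all genes was -0.17. The groups did not overlap for 7 of the 8 factors, against 49.9% of all genes. In 3 the CCK-EGFP arrays lay above (21.8% of all genes) and in 4 below (28.1%).

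**Figure D1:**
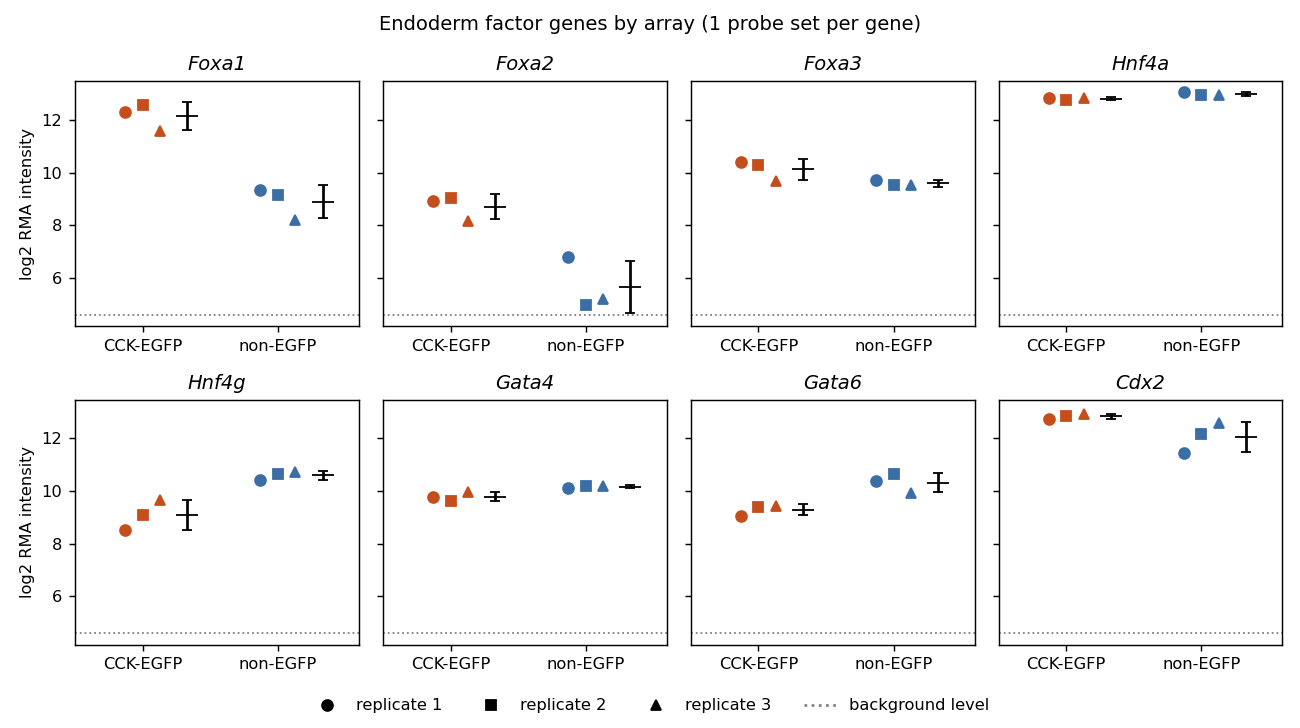
Log2 RMA intensity of each of the 8 factors on the 3 CCK-EGFP arrays (orange) and the 3 non-EGFP arrays (blue), with marker shapes for replicate numbers, black bars for mean ± SD and a dotted line at the background level of 4.60. The CCK-EGFP arrays lie above the non-EGFP arrays for Foxa1 and Foxa2 and below them for Hnf4g and Gata6, and Foxa3 is the 1 factor whose groups overlap.

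The promoters of 5 of the 8 genes were found in a RefSeq table for GRCm38.p6, in 8 windows because Foxa2 has 3 and Hnf4a 2 listed starts. They are shown because factors of these families are known to act on one another's genes, and because Foxa1 and Foxa2 rose together. Each line gives the 250 bases before the listed start, 5′ to 3′ on the strand of the gene, for the 4 windows that held a searched motif, with the motif in capitals.
Foxa1, chr12:57546112-57546361, minus strand: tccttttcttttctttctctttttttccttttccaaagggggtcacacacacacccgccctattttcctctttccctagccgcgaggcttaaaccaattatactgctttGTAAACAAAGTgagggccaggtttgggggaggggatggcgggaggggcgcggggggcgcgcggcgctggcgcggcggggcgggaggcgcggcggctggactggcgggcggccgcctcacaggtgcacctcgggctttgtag
Foxa2, chr2:148045465-148045714, minus strand: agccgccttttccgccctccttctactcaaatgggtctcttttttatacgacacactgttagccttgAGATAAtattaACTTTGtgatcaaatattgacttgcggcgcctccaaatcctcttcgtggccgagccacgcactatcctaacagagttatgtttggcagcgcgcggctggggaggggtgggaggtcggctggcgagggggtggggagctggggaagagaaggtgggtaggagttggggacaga
Hnf4a, chr2:163506607-163506856, plus strand: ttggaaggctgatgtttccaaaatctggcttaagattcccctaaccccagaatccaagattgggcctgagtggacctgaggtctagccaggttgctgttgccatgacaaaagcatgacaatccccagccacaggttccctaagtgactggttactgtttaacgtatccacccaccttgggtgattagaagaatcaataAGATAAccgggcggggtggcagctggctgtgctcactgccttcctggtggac
Cdx2, chr5:147307250-147307499, minus strand: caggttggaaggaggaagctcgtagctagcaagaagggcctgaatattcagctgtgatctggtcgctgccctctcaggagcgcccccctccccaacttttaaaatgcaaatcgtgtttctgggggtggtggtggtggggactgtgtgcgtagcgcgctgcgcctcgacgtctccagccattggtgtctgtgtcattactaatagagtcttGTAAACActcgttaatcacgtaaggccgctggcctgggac

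Both strands were searched. Distances for Foxa2 are from the innermost of its listed starts, which lies inside the gene, and the windows of its other listed starts held no searched motif. The FOXA motif TGTTTAC was found before Foxa1, 141 to 135 bases upstream of the start, and before Cdx2, 40 to 34 bases upstream. It was present in 3.17% of all 32851 windows of this length. The HNF4 half-site core CAAAGT occurred before Foxa1, 136 to 131 bases upstream and overlapping the FOXA match, and before Foxa2, 172 to 167 bases upstream. It was present in 12.6% of windows. The GATA motif AGATAA occurred before Foxa2, 183 to 178 bases upstream, and before Hnf4a, 52 to 47 bases upstream, and in 9.99% of windows. The second FOXA motif TATTTAC and the CDX motifs TTTATG and TTTATT were not in the 8 windows, and were in 2.73%, 10.8% and 18.1% of all windows. These matches describe letters in the windows and are no evidence of binding.

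Foxa1, on chromosome 12, was the factor with the largest difference. It read 12.30, 12.57 and 11.57 on CCK-EGFP replicates 1 to 3, against 9.35, 9.16 and 8.19 on non-EGFP replicates 1 to 3. Every CCK-EGFP array was more than 2 log2 units above the highest non-EGFP array. The means were 12.15 ± 0.52 and 8.90 ± 0.62 (SD, n = 3 each), a 9.48-fold difference (log2 difference 3.25, SE 0.40, limma adjusted p = 0.0031). Differences within same-numbered pairs were 2.95, 3.41 and 3.37. Across the table, 621 genes had a larger positive difference than Foxa1.

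Foxa2, on chromosome 2, read 8.92, 9.04 and 8.17 on the CCK-EGFP arrays, against 6.78, 4.98 and 5.20 on the non-EGFP arrays. The groups did not overlap, and non-EGFP replicate 1 stood well above the other non-EGFP arrays. The means were 8.71 ± 0.47 and 5.65 ± 0.98 (SD, n = 3 each), an 8.31-fold difference (log2 difference 3.05, SE 0.52, limma adjusted p = 0.00958). Differences within pairs spread more than for Foxa1, at 2.14, 4.06 and 2.96. When every probe set of the array was tested, with adjustment over all of them, the Foxa2 call ended without CCK-EGFP replicate 1 (limma adjusted p = 0.0501) or replicate 2 (0.0545).

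Foxa3, on chromosome 7, is the third forkhead gene of the family and is known from liver and islets. It read 10.41, 10.31 and 9.68 on the CCK-EGFP arrays, against 9.73, 9.52 and 9.52 on the non-EGFP arrays. CCK-EGFP replicate 3 lay inside the non-EGFP range and the other CCK-EGFP arrays lay above it. The means were 10.13 ± 0.40 and 9.59 ± 0.12 (SD, n = 3 each), and the log2 difference of 0.54 did not pass the test (SE 0.25, 95% confidence interval -0.05 to 1.14, limma adjusted p = 0.147). Each forkhead gene has 1 probe set, so none of the 3 differences has a second probe set beside it.

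Hnf4g, on chromosome 3, was lower in CCK-EGFP cells on all 3 of its probe sets. On the probe set that represents it, 1460127_at, it read 8.54, 9.10 and 9.65 on the CCK-EGFP arrays, against 10.41, 10.65 and 10.71 on the non-EGFP arrays. The groups did not overlap, with replicate 3 the highest of the CCK-EGFP arrays. The means were 9.10 ± 0.55 and 10.59 ± 0.16 (SD, n = 3 each), 2.82-fold lower in CCK-EGFP cells (log2 difference -1.50, SE 0.31, limma adjusted p = 0.0174). This call ended without CCK-EGFP replicate 2 (limma adjusted p = 0.0665) or non-EGFP replicate 2 (0.0536).

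The other probe sets of Hnf4g gave larger differences. Set 1450518_at read 7.89, 7.79 and 8.47 on the CCK-EGFP arrays, against 11.13, 10.31 and 10.41 on the non-EGFP arrays (log2 difference -2.56, SE 0.31, limma adjusted p = 0.00411 over all probe sets). Set 1422182_at read 8.29, 8.97 and 9.05 on the CCK-EGFP arrays, against 10.71, 10.61 and 10.58 on the non-EGFP arrays (log2 difference -1.87, SE 0.26, limma adjusted p = 0.00616). On each of these sets the arrays of the groups lay more than 1 log2 unit apart, and both calls held with any 1 array left out.

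Hnf4a, on chromosome 2, passed the test on 2 of its 4 probe sets, and the size of the difference varied between sets. The brightest, 1427001_s_at, which represents the gene, read 12.83, 12.74 and 12.84 on the CCK-EGFP arrays, against 13.05, 12.94 and 12.93 on the non-EGFP arrays. The groups parted by a narrow margin and the difference did not pass (log2 difference -0.17, SE 0.17, 95% confidence interval -0.57 to 0.23, limma adjusted p = 0.45). Set 1427000_at read 10.24, 10.18 and 10.35 on the CCK-EGFP arrays, against 11.21, 10.72 and 11.21 on the non-EGFP arrays, a difference of -0.79 that did not pass over all probe sets (limma adjusted p = 0.0544). That set passed after median centring (log2 difference -1.04, limma adjusted p = 0.022) and without non-EGFP replicate 2 (-0.95, 0.0456).

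The dimmer Hnf4a probe sets fell clearly in CCK-EGFP cells. Set 1421983_s_at read 8.36, 7.52 and 7.88 on the CCK-EGFP arrays, against 9.65, 9.21 and 9.16 on the non-EGFP arrays (log2 difference -1.42, SE 0.28, limma adjusted p = 0.0207). Set 1450447_at read 6.21, 5.93 and 5.95 on the CCK-EGFP arrays, against 9.02, 8.40 and 7.46 on the non-EGFP arrays (log2 difference -2.26, SE 0.40, limma adjusted p = 0.0138). All 4 sets placed the CCK-EGFP arrays below the non-EGFP arrays, with differences from -2.26 to -0.17. The call of 1450447_at ended without CCK-EGFP replicate 2 (limma adjusted p = 0.0588), and that of 1421983_s_at ended without CCK-EGFP replicate 2 (0.0754), CCK-EGFP replicate 3 (0.0549) or non-EGFP replicate 1 (0.0551). With the mean of the 4 sets in place of the brightest, Hnf4a was lower by 1.16 and passed (log2 difference -1.16, limma adjusted p = 0.0102). The antisense gene Hnf4aos, which is not 1 of the 8, averaged 4.76 ± 0.18 in CCK-EGFP cells, against 5.22 ± 0.41 in non-EGFP cells (SD, n = 3 each; log2 difference -0.46, limma adjusted p = 0.221). An s_at suffix marks probes that match several transcripts, and which transcripts each set reads is not given in the sources used here.

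**Figure D2:**
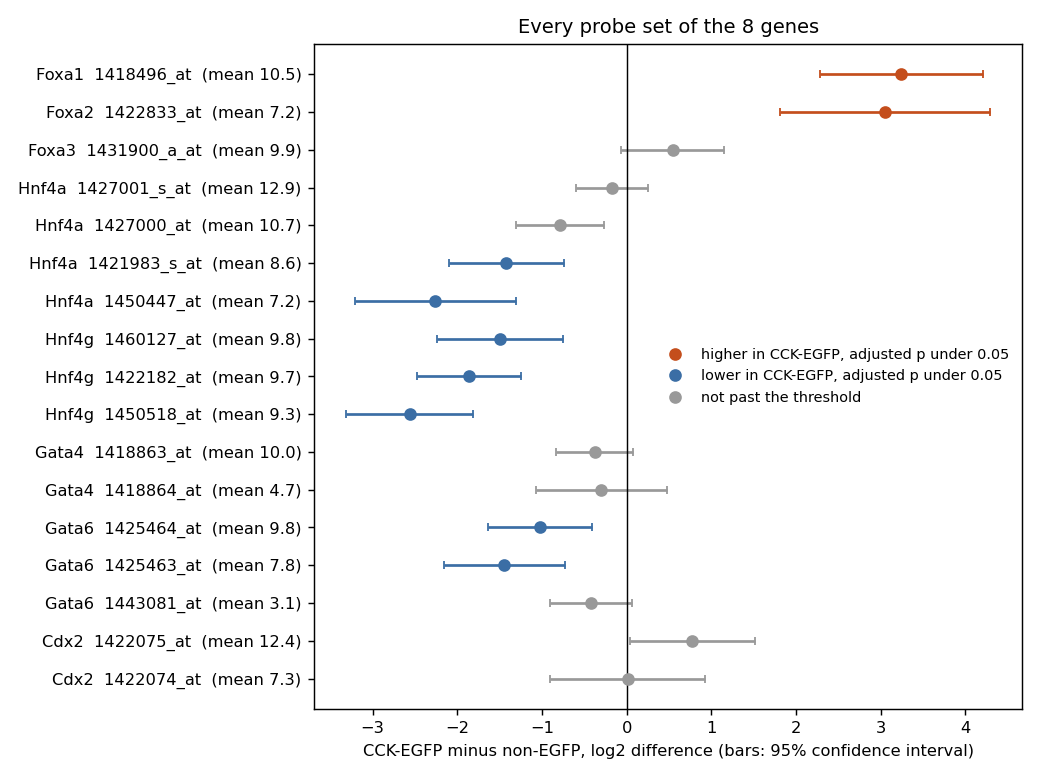
Log2 difference, CCK-EGFP minus non-EGFP, of each of the 17 probe sets of the 8 factors, with 95% confidence intervals and the mean of the 6 arrays beside each name. Orange and blue points passed the limma test over all probe sets, and the 4 sets of Hnf4a spread from -2.26 to -0.17 while the 3 sets of Hnf4g lie at -1.50 or lower.

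Gata6, on chromosome 18, read 9.04, 9.39 and 9.45 on the CCK-EGFP arrays, against 10.40, 10.63 and 9.92 on the non-EGFP arrays. The groups did not overlap, and replicate 3 of each group lay closest to the other group. The means were 9.29 ± 0.22 and 10.32 ± 0.36 (SD, n = 3 each), 2.04-fold lower in CCK-EGFP cells (log2 difference -1.03, SE 0.25, limma adjusted p = 0.0303). With the replicate number as a block it did not pass (limma adjusted p = 0.0545). The call also ended without CCK-EGFP replicate 1, 2 or 3 (limma adjusted p = 0.104, 0.0889 and 0.0542) and without non-EGFP replicate 1 or 2 (0.0734 and 0.0803).

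A second Gata6 probe set, 1425463_at, read 6.66, 7.01 and 7.66 on the CCK-EGFP arrays, against 8.65, 8.66 and 8.35 on the non-EGFP arrays. Its log2 difference of -1.45 passed over all probe sets (SE 0.30, limma adjusted p = 0.0227, and 0.0471 with replicate number blocked). The call ended without CCK-EGFP replicate 1 or 2 (limma adjusted p = 0.0728 and 0.0878) or non-EGFP replicate 1 or 2 (0.0625 and 0.0647). The third, 1443081_at, lay below the background level on every array.

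Gata4, on chromosome 14, read 9.78, 9.63 and 9.95 on the CCK-EGFP arrays, against 10.11, 10.21 and 10.18 on the non-EGFP arrays. The CCK-EGFP arrays lay below the non-EGFP arrays by a narrow margin. The means were 9.79 ± 0.16 and 10.17 ± 0.05 (SD, n = 3 each), and the log2 difference of -0.38 did not pass (SE 0.18, 95% confidence interval -0.80 to 0.05, limma adjusted p = 0.161). The other Gata4 probe set, 1418864_at, lay at or near background, with 2 of 3 CCK-EGFP arrays and 1 of 3 non-EGFP arrays below the background level, and the groups overlapped.

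Cdx2, on chromosome 5, read 12.74, 12.86 and 12.91 on the CCK-EGFP arrays, against 11.46, 12.17 and 12.57 on the non-EGFP arrays. The CCK-EGFP arrays were close together and all above the non-EGFP arrays, which spread over more than 1 log2 unit. The means were 12.84 ± 0.09 and 12.06 ± 0.56 (SD, n = 3 each), and the log2 difference of 0.77 did not pass (SE 0.30, limma adjusted p = 0.107). It passed with non-EGFP replicate 3 left out (log2 difference 1.03, limma adjusted p = 0.0471). The second probe set, 1422074_at, averaged 7.27 ± 0.37 in CCK-EGFP cells, against 7.26 ± 0.66 in non-EGFP cells (SD, n = 3 each; log2 difference 0.01, 95% confidence interval -0.90 to 0.92, limma adjusted p = 0.986).

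Over the 17 probe sets, 2 were higher, 7 lower and 8 did not pass, where 8.84% of all probe sets were called higher, 7.29% lower and 16.1% in either direction. The groups did not overlap on 14 sets, against 44.2% of all probe sets, with the CCK-EGFP arrays above on 3 (16.6% of all) and below on 11 (27.6% of all). The 7 lower sets were 3 of Hnf4g, 2 of Hnf4a and 2 of Gata6. Sets of 1 gene share their source and are not replicates of each other. The number lower was 2 without CCK-EGFP replicate 2, 4 without CCK-EGFP replicate 1 and 4 without non-EGFP replicate 1. CCK-EGFP replicate 3 was the CCK-EGFP array nearest the non-EGFP mean for 7 of the 8 factors, the exception being Cdx2. It was the nearest for 42.1% of all genes and 57.7% of the genes called. Leaving it out moved the difference of Foxa1 to 3.54, of Foxa2 to 3.33, of Hnf4g to -1.77 and of Gata6 to -1.10.

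**Figure D3:**
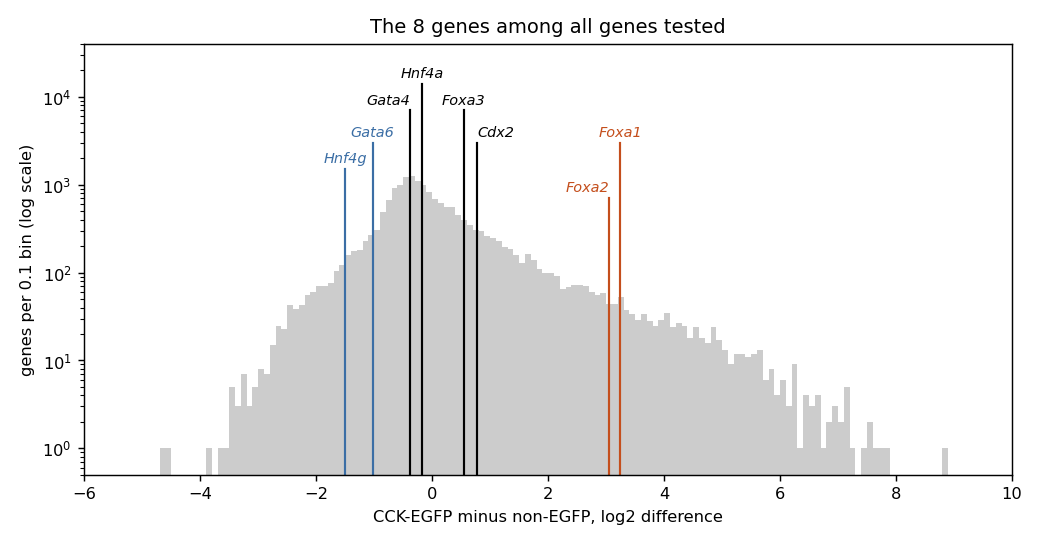
Histogram of log2 differences, CCK-EGFP minus non-EGFP, of all 18193 genes in bins of 0.1 on a log count axis, with the 8 factors marked (orange called higher, blue called lower, black not called). Foxa1 and Foxa2 lie in the right tail at 3.25 and 3.05, with 621 and 707 genes beyond them, and the other 6 factors lie between -1.50 and 0.77.

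For each factor, the 2 genes with the most similar profile were found by the mean absolute difference over the 6 arrays of values centred on each gene's own mean, among genes whose mean over the 6 arrays was above the background level. Foxa1 was nearest Dnajb5 (mean absolute difference 0.135) and Stum (0.14), whose non-EGFP mean of 3.86 lay below the background level. Foxa2 was nearest Rsph9 (0.0705) and Asic5 (0.139). Hnf4g was nearest Tdp2 (0.0459) and Acad11 (0.0504), and Gata6 was nearest Inpp5b (0.0618) and Capn1 (0.07). The factors that did not pass had nearest genes at 0.0218 to 0.0607, namely Plekha6 and Ikzf5 for Foxa3, Ndufa13 and Ldha for Hnf4a, P2rx4 and Atp5o for Gata4, and Rps18 and Ankra2 for Cdx2. Such distances shrink where a gene varies little, so they do not rank the factors.

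Close relatives of the factors showed no call. Of 6 measured GATA and CDX paralogues 0 passed in limma, where 24.1% of all genes did. None had an unadjusted p under 0.05, and the median log2 difference was -0.29. Cdx1, a homeobox factor of the same group as Cdx2, averaged 10.25 ± 0.46 in CCK-EGFP cells, against 9.76 ± 0.59 in non-EGFP cells (SD, n = 3 each; log2 difference 0.50, limma adjusted p = 0.343). Gata5, a GATA factor of gut and heart, averaged 9.84 ± 0.05 in CCK-EGFP cells, against 10.16 ± 0.48 in non-EGFP cells (SD, n = 3 each; log2 difference -0.32, limma adjusted p = 0.386). Gata1 and Cdx4 lay below the background level in both groups.

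Other transcription factors of gut epithelium went both ways, with 2 of 19 higher, 5 lower and a median log2 difference of -0.43. That is 36.8% called, against 24.1% of all genes. Prox1, a homeobox factor, averaged 10.23 ± 0.18 in CCK-EGFP cells, against 4.98 ± 0.88 in non-EGFP cells (SD, n = 3 each; log2 difference 5.24, SE 0.44, limma adjusted p = 0.000771). Hhex, a homeobox factor of foregut endoderm, was higher by 1.59 (limma adjusted p = 0.0359). Prdm1, a repressor that times the change to adult epithelium in mouse intestine, was lower (log2 difference -2.42, limma adjusted p = 0.0411), as was Creb3l3, a membrane-bound factor of lipid metabolism (log2 difference -1.55, limma adjusted p = 0.0116). Klf4 (log2 difference -0.43, limma adjusted p = 0.131) and the vitamin D receptor Vdr (-0.64, 0.111) did not pass. The number lower was 2 without CCK-EGFP replicate 2 or non-EGFP replicate 1 and 3 without CCK-EGFP replicate 1, non-EGFP replicate 2 or non-EGFP replicate 3. The number higher was 1 after a second quantile normalization and when non-EGFP replicate 2 or any 1 of the CCK-EGFP arrays was dropped. After median centring of the arrays, 8 were lower.

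Of 12 cofactors and competitors of the GATA and HNF4 proteins, 2 were higher, 1 was lower and 9 did not pass, with a median of -0.03. That is 25.0% called, near the 24.1% of all genes. Nr0b2, a nuclear receptor that lacks a DNA-binding domain and represses HNF4A, averaged 7.23 ± 0.73 in CCK-EGFP cells, against 9.41 ± 0.81 in non-EGFP cells (SD, n = 3 each; log2 difference -2.18, limma adjusted p = 0.0275). Nr2f2, an orphan receptor that can bind the same sites as HNF4A, averaged 9.04 ± 0.26 in CCK-EGFP cells, against 7.49 ± 0.74 in non-EGFP cells (SD, n = 3 each; log2 difference 1.55, limma adjusted p = 0.0337). Med1, a Mediator subunit, was higher by 0.71 (limma adjusted p = 0.0366). With the replicate number as a block none of these passed (limma adjusted p = 0.0674 for Nr0b2, 0.061 for Nr2f2 and 0.057 for Med1), and Ppargc1a, a coactivator of HNF4A, became the 1 lower gene (log2 difference -1.33, limma adjusted p = 0.0555, and 0.0314 with the block). Ppargc1a was chosen after its values were seen. The number higher was also 0 with the mean of probe sets or without any 1 CCK-EGFP array, and 1 without non-EGFP replicate 1 or 2. The number lower was 0 without replicate 1 or 2 of either group, 2 without CCK-EGFP replicate 3 and 3 after median centring. Nr2f6 (log2 difference 0.07, limma adjusted p = 0.765) and the acetyltransferase Crebbp (0.30, 0.285) did not pass.

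Enterocyte genes that HNF4 or CDX2 is known to control were mostly below 0 in difference, 21 of 22, with a median of -0.62. Of all 18193 genes, 10599 were below 0, with a median of -0.17. In limma 7 of the 22 were lower and 0 higher, against 10.2% and 14.0% of all genes. The brush border protease Mep1a averaged 7.84 ± 1.10 in CCK-EGFP cells, against 10.51 ± 0.27 in non-EGFP cells (SD, n = 3 each; log2 difference -2.67, limma adjusted p = 0.0164). The glucose-6-phosphatase gene G6pc differed by -2.07 (limma adjusted p = 0.0437), the trehalase gene Treh by -1.94 (0.0341) and the lipid transfer gene Mttp by -1.53 (0.0381). Apoa1 and Apoa4, apolipoprotein genes near the array maxima, did not pass (limma adjusted p = 0.968 and 0.392). With the replicate number as a block 3 of the 22 were lower, and Treh and Mttp did not pass (limma adjusted p = 0.0527 and 0.055). The number lower was 0 without CCK-EGFP replicate 2 or non-EGFP replicate 2, 1 without non-EGFP replicate 3, 2 without CCK-EGFP replicate 1 or non-EGFP replicate 1, and 14 after median centring or under the trend and robust settings, where 1 was higher. The list shares 10 measured genes with the enterocyte markers, of whose 11 measured members 3 were lower. That number was 1 with the block, 5 without CCK-EGFP replicate 3 and 0 without any other 1 array. The part of enterocyte markers in the difference was not tested.

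Endocrine and goblet genes linked to FOXA factors in mice were mostly higher, 8 of 10, with 1 lower and a median of 3.52. Among all genes, limma called 14.0% higher and 10.2% lower. The list shares 2 genes with the enteroendocrine markers and 2 with the goblet markers. It also holds other endocrine genes, such as Gcg, Sst and Pyy, which a sort for enteroendocrine cells can raise by itself. Whether FOXA factors act on any of these genes here was not tested. The LIM factor gene Isl1 was higher by 6.15 (limma adjusted p = 0.000594), Pax6 by 5.98 (0.00156), the proglucagon gene Gcg by 5.66 (0.00813) and the sulfonylurea receptor gene Abcc8 by 5.40 (0.000104). Pdx1, the pancreas and duodenum homeobox factor, averaged 9.38 ± 0.26 in CCK-EGFP cells, against 8.90 ± 1.03 in non-EGFP cells and did not pass (SD, n = 3 each; log2 difference 0.48, limma adjusted p = 0.491). The lower gene was the mucin gene Muc2 (log2 difference -1.33, limma adjusted p = 0.0473), whose call ended after a second quantile normalization and without any 1 array other than CCK-EGFP replicate 3. The other goblet gene of the list, Agr2, went the opposite way and was called higher (log2 difference 1.196, limma adjusted p = 0.00655). Agr2 and Muc2 were chosen after their values were seen.

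**Figure D4:**
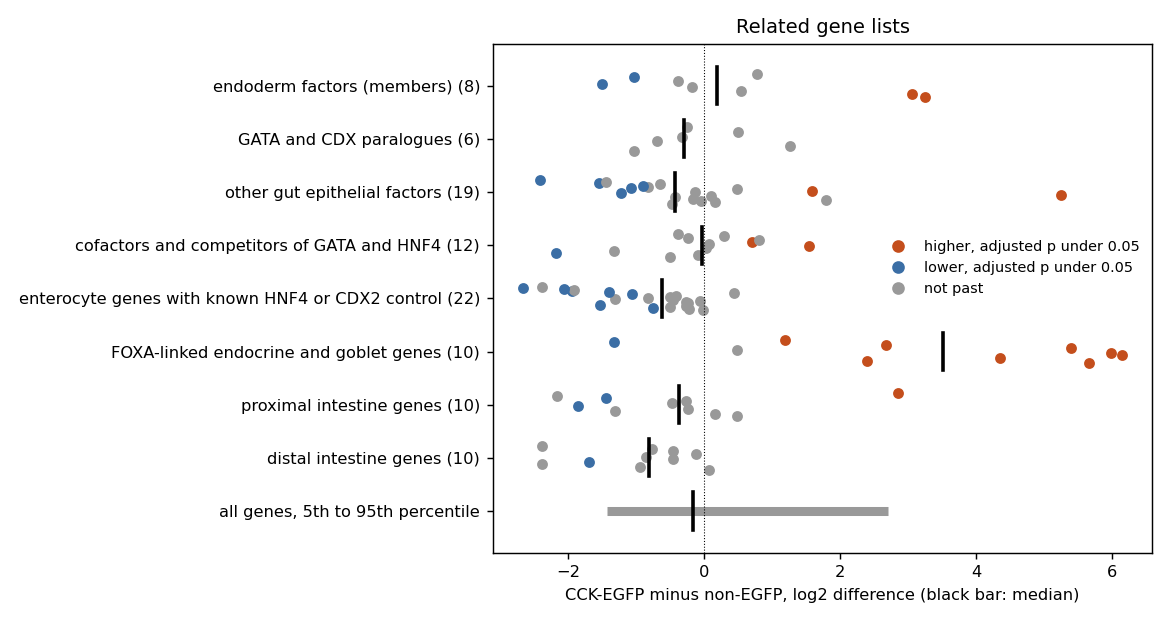
Log2 difference, CCK-EGFP minus non-EGFP, of every measured gene of the 8 factors and of 7 related lists, with the median of each list as a black bar and, at the bottom, the range from the 5th to the 95th percentile of all genes. The medians are 3.52 for the FOXA-linked genes, -0.62 for the enterocyte genes and 0.19 for the 8 factors.

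Regional genes of the intestine were called for 3 of 10 on the proximal and 1 of 10 on the distal list, against 24.1% of all genes. Of 10 proximal genes 1 was higher, the hormone gene Gip (log2 difference 2.84, limma adjusted p = 0.00693), and 2 were lower, Cyp2b10 (-1.85, 0.0144) and the iron exporter gene Slc40a1 (-1.45, 0.0455), with a median of -0.38. Both lower calls ended without CCK-EGFP replicate 1 or 2, and 1 lower call was left without any 1 non-EGFP array. Without non-EGFP replicate 1, 2 were higher, and with the replicate number as a block Slc40a1 did not pass (limma adjusted p = 0.0753) while the ferric reductase gene Cybrd1 did (log2 difference -2.16, 0.0445). Cybrd1 was chosen after its values were seen. After a second quantile normalization 1 was lower. Rbp2 (-0.27, 0.262) and Fabp1 (-0.23, 0.345) did not pass. Of 10 distal genes 0 were higher and 1 was lower, the bile acid exporter subunit Slc51b (log2 difference -1.69, limma adjusted p = 0.0114), with a median of -0.81. With the replicate number as a block 2 were lower, after median centring 5 were, and without CCK-EGFP replicate 3 or non-EGFP replicate 3, 3 were. The carbonic anhydrase Car4 (-0.85, 0.292) and the receptor Cubn (-2.38, 0.0722) did not pass, and Slc10a2, Car1, Insl5 and Hoxd13 lay below the background level in both groups.

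Markers of other cells were measured beside these lists, where 14.0% of all genes were called higher and 10.2% lower. Of 7 goblet markers 1 was higher and 2 lower, of 5 tuft markers 3 were higher, and of 5 stem cell markers 1 was higher (2 under the block). Without 1 array, 0 or 1 of the goblet markers was lower, and it was 0 when non-EGFP replicate 1, CCK-EGFP replicate 1 or CCK-EGFP replicate 2 was dropped. The 3 tuft calls were 2 without any 1 array other than CCK-EGFP replicate 3. Paneth, T and NK lymphocyte, B cell, myeloid, pancreas and erythroid lists had 0 calls in limma without the block, with an unadjusted p under 0.05 for 5 of 7 myeloid and 3 of 4 pancreas markers and for 0 of the other lists. With the replicate number as a block 3 of 4 Paneth markers were lower, namely Mmp7, Ang4 and Itln1 (limma adjusted p = 0.0352, 0.0298 and 0.0247), and 2 of 7 myeloid markers, Lyz2 and H2-Ab1 (0.0253 and 0.0301). These 5 markers were chosen after their values were seen. Stroma and endothelium had 1 lower of 10, with 6 of the 10 below the background level in both groups. The lower gene, Des, did not pass with the block (limma adjusted p = 0.0596). This count was 0 to 2 with 1 array left out, and it changed under 11 of 14 alternatives. Neurons and glia had 1 higher of 4, Ret (log2 difference 6.29, limma adjusted p = 0.000717), whose non-EGFP mean of 4.44 lay below the background level. Elavl4, Sox10 and S100b differed by -0.68, -0.92 and -0.61, did not pass, and lay below the background level on every CCK-EGFP array. Ret was named after its values were seen. In units of 1000, the summed linear intensity of the tuft list was 1.99 to 4.97 on CCK-EGFP arrays and 0.646 to 0.984 on non-EGFP arrays, and the tuft factor Pou2f3 lay below the background level in both groups. The T and NK list overlapped between the groups, at 8.28 to 28.5 on CCK-EGFP arrays and 11.4 to 26.7 on non-EGFP arrays. The myeloid list gave 3.53 to 11.5 on CCK-EGFP arrays and 15.2 to 21.4 on non-EGFP arrays, with Itgam and Adgre1 below the background level in both groups. The part of these cells in the results on the 8 factors was not tested.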

How the data were processed

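The 6 samples held total RNA from sorted cells of the intestine, 3 CCK-EGFP and 3 non-EGFP. Per the labels' protocols, tissue was dissociated with enzymes, cells were sorted, and RNA was amplified with a kit for picogram inputs and then biotin-labelled. Log2 values were deposited by the authors as 1 table for 45101 probe sets, 64 of them controls, made with RMA per the submitters' processing notes. No RMA version or option is given in the sources used here. RMA normalizes quantiles between arrays, which can reduce a broad shift between groups, and it gives no detection call. Amplification from picograms can add variation, and 3 arrays per group limit the precision.

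Platform annotation, which can be old, gave 1 gene symbol for 34945 probe sets, several for 932 and none for 9160. No column was left unmapped. The comparison used limma 3.58.1 under R 4.3.3 (lmFit, eBayes, two-sided, Benjamini-Hochberg over all genes, or over all probe sets where single sets are given, threshold 0.05). The code was tested on simulated data in which few genes differed, unlike here. There 5 of 50 genes with a true log2 difference of 1 were called, and 5 of 50 with -1. Of those with 3 and -3, 39 of 50 and 42 of 50 were called. A difference that did not pass can therefore still be real. Python 3.11.15, pandas 2.3.3 and matplotlib 3.10.9 made tables and figures. The 8 genes, the gene lists and the tests were chosen with earlier results of these data known. The text names each of the 8 genes with its probe sets, Cck, 2 nearest profiles per gene, and from each related list up to 4 genes past the threshold by size and 2 not past it by level.

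Replicate numbers 1 to 3 in the labels occur in both groups. Across genes, which are not independent, deviations from group means correlated at 0.270, 0.159 and 0.219 between same-numbered arrays, so same-numbered samples deviated together. Between other arrays they correlated at -0.245 to -0.0109. Deviations cancel out within a group, so these negative values follow in part from the positive ones and are not separate evidence. The main test has no replicate block, and results are given with the block where it changes the call of a named gene. Alternatives were the block, 2 filters on dim genes, trend and robust settings, array weights, median centring, a second quantile normalization, the mean of probe sets, each probe set alone and leaving out each array.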

Additional observations from a re-analysis of the deposited data

How the results depend on the processing

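Under 15 alternatives each, Foxa1 (limma adjusted p = 0.00113 to 0.0173) and Foxa2 (0.00288 to 0.0447) stayed higher and past the threshold, and no factor changed direction. Both genes have 1 probe set, so the mean of probe sets and each probe set alone could not change their differences. Among all probe sets, Foxa2 lost its call when CCK-EGFP replicate 1 (limma adjusted p = 0.0501) or replicate 2 (0.0545) was left out. With the replicate number as a block Gata6 kept its log2 difference of -1.03 and lost its call, which left 1 of the 8 factors lower; no other factor changed its call. With the mean of probe sets Hnf4a passed at -1.16. With 1 array left out, differences ran from 2.89 to 3.54 for Foxa1, 2.72 to 3.62 for Foxa2, -1.77 to -1.22 for Hnf4g, -1.22 to -0.87 for Gata6 and 0.47 to 1.03 for Cdx2. The number of factors lower ran from 0 to 2 and higher from 2 to 3, and of their probe sets 2 to 6 lower and 1 to 2 higher. Of all genes, 1365 to 2486 were then higher and 505 to 1962 lower, against 2540 and 1851 with every array, and the lowest counts came without CCK-EGFP replicate 2. Median centring shifted each difference by -0.25 and made 2101 genes higher and 3605 lower. The cause of the change for Hnf4a was not tested. Probe sets near the background level of 4.60 limit what can be measured, among them 1 of Gata4 and 1 of Gata6.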
